A study of Homo sapiens and Mus musculus with 21 samples.

Results

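The 153 genes described here were the protein-coding genes of chromosome 13 that GENCODE release 29 places there and whose deposited level, averaged over 18 tumour xenograft libraries, was at least 5 TPM (a transcript's share of the library, corrected for its length and scaled to a fixed total). They were selected on that mean level, from 320 protein-coding and 1310 genes of any kind on the chromosome and 58381 identifiers in the human table. The genes nearest the cut were CENPJ at 5.00 TPM and TMTC4 at 5.06 TPM inside it, and LRCH1 at 4.88 TPM and TDRD3 at 4.84 TPM outside it. All 153 passed the filter on low values (at least 1 TPM in at least 3 libraries), as did 220 of the 320 protein-coding genes.

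Chromosome 13 is acrocentric, so its genes lie on the long arm, 13q. Gain of 13q is among the most frequent chromosome changes of colorectal cancer, and the arm carries genes with known roles in that disease: CDX2, which specifies intestinal epithelium, KLF5, which keeps intestinal crypt cells dividing, and CDK8, a kinase of the Mediator complex that can amplify transcription driven by beta-catenin. SW480 and SW620 are established colorectal adenocarcinoma lines from the same patient, SW480 from the primary tumour and SW620 from a lymph node metastasis.

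The study measured RNA from tumours that these lines formed in the caecum wall of immunodeficient NSG mice, harvested at day 28. SW480 was represented by cells transduced by lentivirus with dominant negative LEF1 (dnLEF1), a form of the Wnt pathway factor that blocks transcription by beta-catenin, and by mock-transduced cells (Mock). SW620 was represented by dnLEF1 and Mock, by LRP6KO, transfected with a CRISPR construct against the Wnt co-receptor LRP6, selected with puromycin and sorted for low LRP6 protein, and by Cas9, its mock-transfected control. Each of the 6 groups had 3 libraries, made from total RNA of whole caecum tissue with integrity numbers of 9 or more by the Smart-seq2 protocol, which amplifies full-length complementary DNA and does not mark strand. The labels call the triplicates biological but tie no library to an animal, so p-values measure the spread between these samples. The lines were used as cell populations and the sources used here do not give a promoter for the dnLEF1 construct.

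The libraries held 24665 to 34709 genes above 0, and the read depth is not given in the sources used here. SW480 Mock replicate 2 and SW620 LRP6KO replicate 1 had the most detected genes. LEF1, the gene of the transgene, was at 47.2 to 99.4 TPM in SW480 dnLEF1 against 5.09 to 14.8 TPM in SW480 Mock, and at 18.2 to 24.0 TPM in SW620 dnLEF1 against 0.30 to 0.80 TPM in SW620 Mock. LRP6 was at 21.1, 18.8 and 17.5 TPM in the libraries labelled LRP6KO and at 10.9, 17.8 and 17.5 TPM in Cas9 (log2 difference 0.32, SE 0.27, limma adjusted p = 1), so the transcript level does not check the knockout label, which rests on protein. The human table also held markers of stroma, vessels, leukocytes and muscle: 19 markers summed to 38.9 to 93.9 TPM in SW480 libraries and 24.0 to 55.8 TPM in SW620 libraries, with 0 to 5 of them at 0, beside 8741 to 21209 TPM for 12 epithelial markers. The sums hide markers of both directions. By median, LUM, PECAM1, PDGFRB, PDGFRA, CDH5 and CSF1R were higher in SW620 libraries and the rest of the 19 in SW480. LUM was at 0 to 0.34 TPM in SW480 and 2.21 to 10.4 TPM in SW620. Stroma, vessels, leukocytes and muscle in these tumours would be mouse cells. Whether the values came from mouse reads counted to human genes or from the tumour cells was not tested. A lower level in such bulk tissue can come from fewer cells of a type or from less RNA per cell, which cannot be told apart. The part of these marker differences in the line differences below was not tested.

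The 153 genes together took 0.789% to 1.07% of all TPM in the 6 SW480 libraries and 0.605% to 0.765% in the 12 SW620 libraries, 2 ranges that did not overlap. The 3 most abundant, HMGB1, TPT1 and RPL21, made up 29% to 35.1% of the members' total in SW480 and 21.4% to 29.1% in SW620 libraries. HMGB1, a chromatin protein that bends DNA, was at 943 to 1653 TPM in SW480 (median 1074) and 575 to 902 TPM in SW620 (median 751). TPT1, which encodes translationally controlled tumour protein, was at 834 to 1539 TPM (median 894) and 449 to 770 TPM (median 557). RPL21, a protein of the large ribosomal subunit, had medians of 605 and 382 TPM. These 3 are the members with 10 or more pseudogenes named for them (48 for HMGB1, 14 for TPT1 and 66 for RPL21), so their reads may be split with near-identical copies.

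SW620 Mock tumours differed from SW480 Mock tumours by position along the chromosome: genes in the stretch nearer the centromere were mostly lower in SW620 and genes in the distal stretch mostly higher. By limma on log2(TPM + 1) with Benjamini-Hochberg adjustment over all 22981 genes tested, 39 of the 153 members were called higher (25.5%) and 56 lower (36.6%) at an adjusted p under 0.05. Over all genes tested 10.9% were called higher and 12.9% lower. Over the 9303 protein-coding genes with a mean of at least 5 TPM, which are as well expressed as the members, 20.7% were called higher and 15.5% lower. The median difference was -0.27 for the members, -0.14 for all genes tested and 0.06 for the 9303 genes.

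In windows of 10 Mb, the median differences of SW620 Mock from SW480 Mock were -1.06 for the 4 members from 10 to 20 Mb, -0.90 for the 25 from 20 to 30 Mb, -0.87 for the 17 from 30 to 40 Mb and -0.62 for the 35 from 40 to 50 Mb. None of the 46 members in the first 3 of these windows was called higher, and 32 were called lower. The 10 members from 50 to 60 Mb had a median of -0.08, and no member started between 60 and 70 Mb. Beyond that gap the medians were 0.85 for 15 members from 70 to 80 Mb, 0.44 for 13 from 90 to 100 Mb, 0.85 for 10 from 100 to 110 Mb and 0.52 for 23 from 110 to 120 Mb, and the single member from 80 to 90 Mb, SPRY2, stood at 1.49.

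**Figure D1:**
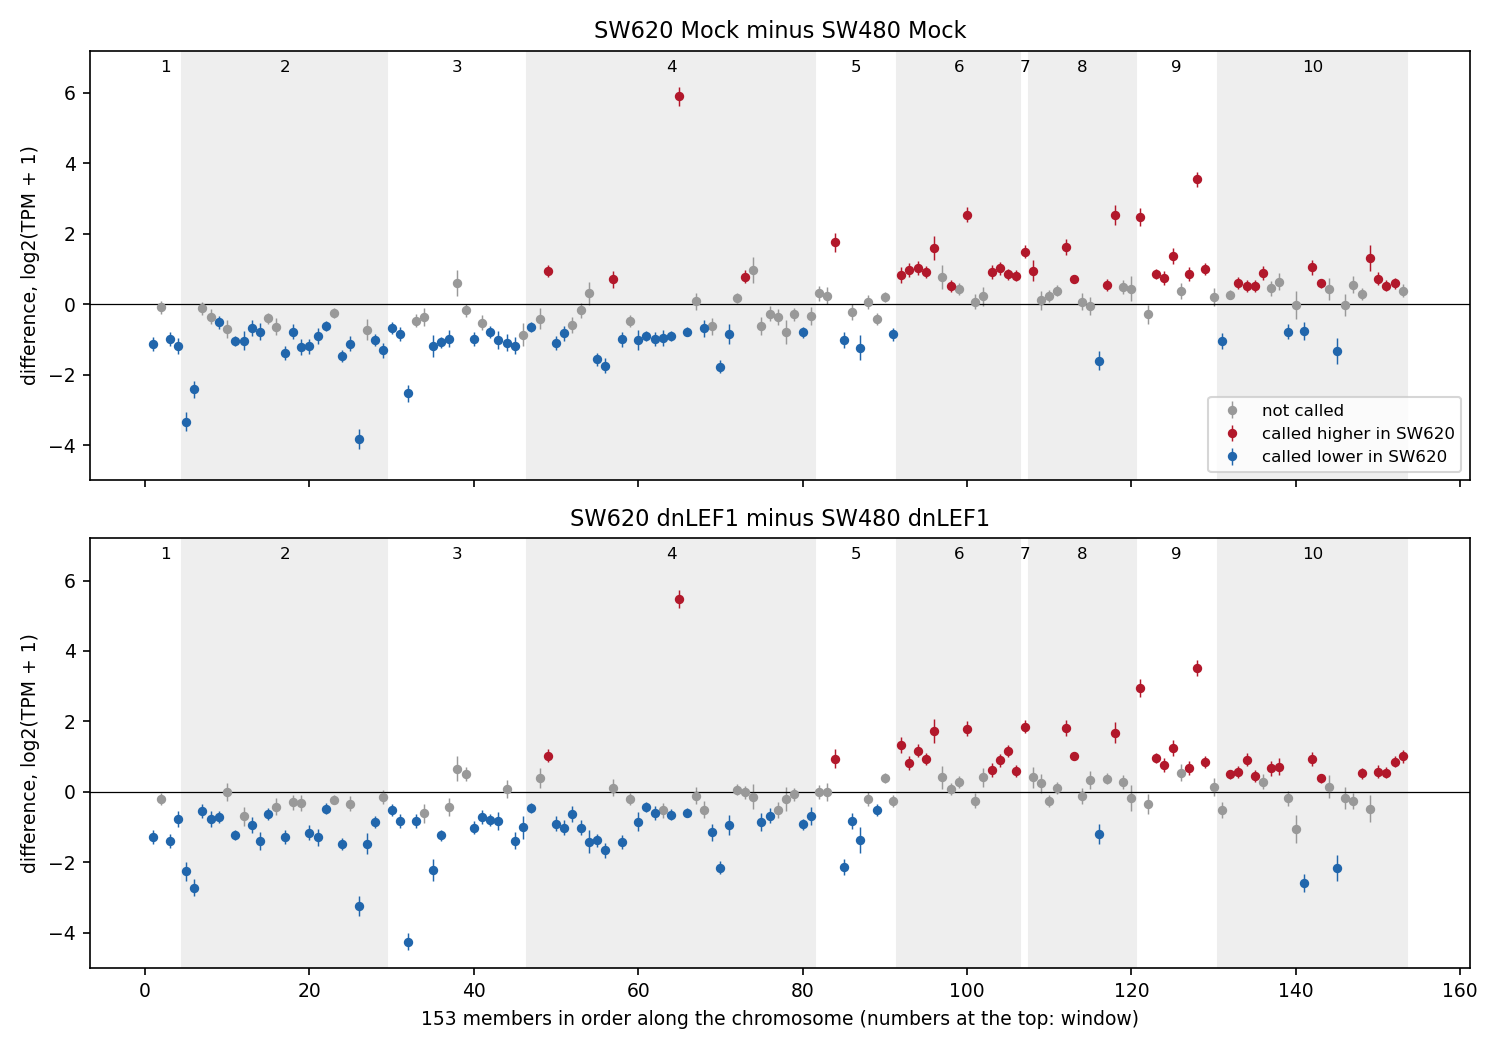
Difference between the lines in log2(TPM + 1) (y axis) for each of the 153 members in order along the chromosome (x axis), for Mock tumours (top) and dnLEF1 tumours (bottom). Points are fitted differences, bars are 1 standard error, red and blue mark genes called higher and lower in SW620, and shading with the numbers at the top marks the 10 windows that hold members. Most called genes lie below 0 in windows 1 to 5 and above 0 in windows 6 to 10, with LCP1 at 5.90 in the top panel as the highest point.

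Counted on either side of the empty window, a split chosen after the window medians were seen, the 91 members that start before 60 Mb had 5 called higher and 51 lower (median -0.78, a fold of 0.583 on the scale of TPM + 1), and the 62 that start after it had 34 called higher and 5 lower (median 0.58, a fold of 1.49). Those called against the pattern of their stretch were, before 60 Mb, ELF1, SERP2, LCP1, CDADC1 and WDFY2, and after it DOCK9, COL4A2, ATP11A, F10 and GRTP1. These 10 are named for their direction, with their values known. Chromosome 13 genes that were tested but are no members also had more calls lower than higher before 60 Mb. Of 43 protein-coding genes under 5 TPM 0 were called higher and 20 lower (46.5%, median -0.76). Of 115 genes of other kinds 0 were called higher and 12 lower (10.4%, median -0.42). After 60 Mb 1 of 24 such protein-coding genes was called higher (4.17%) and 4 lower (16.7%, median -0.08). Of 82 genes of other kinds there 6 were called higher (7.32%) and 1 lower (1.22%, median -0.03). Over all genes tested 10.9% were called higher and 12.9% lower. Among these non-members only the 46.5% lay well above such shares. Low genes have compressed differences on the log2(TPM + 1) scale, though the 43 before 60 Mb were at -0.76 beside -0.78 for the members there. Membership rests on a mean over 12 SW620 and 6 SW480 libraries. A gene high only in SW620 therefore passes more easily than a gene high only in SW480. The part of either limit in these counts was not tested.

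Set beside 263 windows of 10 Mb across the genome with at least 10 protein-coding genes of 5 TPM or more, the window from 20 to 30 Mb had the lowest median of all in SW620 Mock against SW480 Mock. Only 1 window was lower than that from 30 to 40 Mb, and 3 were lower than that from 40 to 50 Mb. In the distal stretch 9 windows were higher than that from 100 to 110 Mb. For that from 70 to 80 Mb 10 were higher. The remaining ranked windows were less extreme. Higher than that from 110 to 120 Mb were 40 windows, and 54 than that from 90 to 100 Mb. Lower than that from 50 to 60 Mb were 72 windows. Across 23 chromosomes, chromosome 13 had the lowest median (-0.27, close to -0.26 for chromosome 21) and the widest spread of differences (interquartile range 1.46). In the dnLEF1 comparison of the lines, described next, 7 windows were lower than that from 20 to 30 Mb. Lower than that from 30 to 40 Mb were 4, and 20 than that from 40 to 50 Mb. Higher than that from 100 to 110 Mb were 5, and 4 than that from 70 to 80 Mb. The remaining ranked windows were again less extreme. Higher than that from 110 to 120 Mb were 22, and 50 than that from 90 to 100 Mb. Lower than that from 50 to 60 Mb were 81. The windows were ranked after chromosome 13 had been chosen with line differences known, so the ranks are a description.

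dnLEF1 tumours gave differences between the lines from group means that share no library with the Mock comparison. The fit took 1 estimate of spread per gene from all 18 libraries, so the calls of the 2 comparisons are not separate. SW620 dnLEF1 against SW480 dnLEF1 had 37 members called higher (24.2%) and 60 lower (39.2%), where 10% and 21.5% of all genes tested and 18.1% and 25.6% of the 9303 well-expressed genes were called. The medians along the chromosome were -1.03, -0.78, -0.82, -0.61 and -0.23 in the 5 windows before 60 Mb and 0.81, 1.85 (SPRY2 alone), 0.28, 0.80 and 0.46 in the 5 after it. Before 60 Mb 3 members were called higher and 57 lower, and after it 34 higher and 3 lower. Scaling each library by its median ratio moved all genes tested by 0.26 in this comparison, and turned the split of members from 37 higher and 60 lower to 47 higher and 33 lower. With that scaling the members before 60 Mb had 5 called higher and 30 lower (median -0.35), but against the median of the 9303 genes they lay at -0.58 as deposited and at -0.57 scaled, and the members after 60 Mb at 0.64 both ways.

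Between the Mock and the dnLEF1 comparison 135 of 153 members had the same sign (88.2%, against 79.3% of the 9303 genes). The same 76 genes were called in both, 32 higher and 44 lower, out of 116 called in at least 1, and none was called in opposite directions. Both sets of calls used the shared estimate of spread. Across the members the differences correlated with Pearson's r of 0.90 and Spearman's rho of 0.86, against 0.87 and 0.81 across the 9303 genes. The genes are not independent replicates and the correlation is a description. The pattern also held library by library: in the windows from 10 to 50 Mb every one of the 6 SW480 libraries had a higher median than every one of the 12 SW620 libraries, and in the windows from 70 to 110 Mb a lower one, while the ranges met in the windows from 50 to 60 Mb and from 110 to 120 Mb. Of the members, 25 (16.3%) were higher in all 12 SW620 than in all 6 SW480 libraries and 43 (28.1%) lower in all, where 12% and 12.1% of the 9303 genes were.

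**Figure D2:**
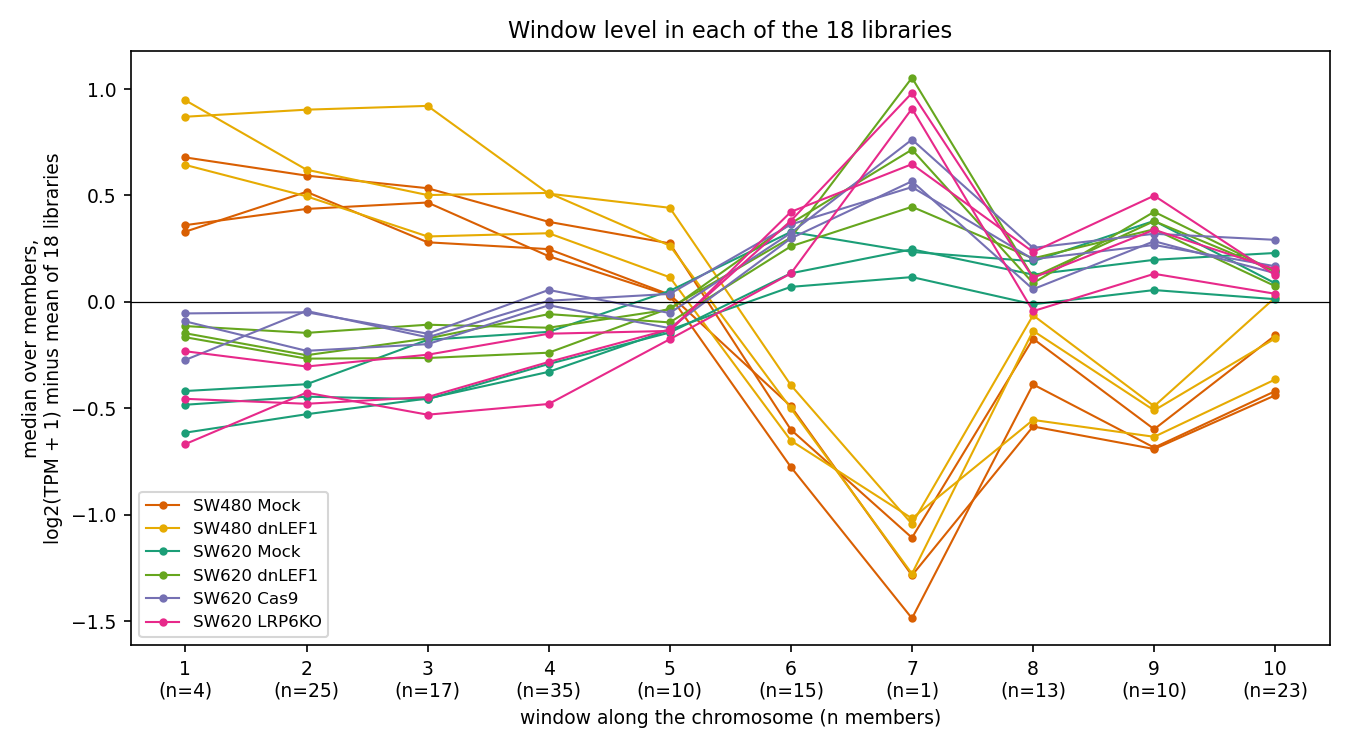
Level of each window in each of the 18 libraries: the median over the window's members of log2(TPM + 1) minus the gene's mean over all libraries (y axis), by window in order along the chromosome (x axis, number of members in brackets). Each line is 1 library, coloured by group. The 6 SW480 libraries lie above the 12 SW620 libraries in windows 1 to 4 and below them in windows 6 to 9.

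A broad list of transcription factors and related genes had 10 members. It counts LMO7, which is also counted with the matrix, adhesion and cytoskeleton genes. The 5 before 60 Mb had 4 called lower and 1, ELF1, called higher. The 5 after it had 3 called higher, LMO7 among them, and 0 lower. CDX2 (chr13:27962137-27971139, minus strand, GRCh38) was at 41.4, 46.2 and 34.2 TPM in SW480 Mock and at 1.30, 2.33 and 2.22 TPM in SW620 Mock. All SW480 libraries, dnLEF1 included, lay above all SW620 libraries, and the Mock difference was -3.83 on the log2 scale (SE 0.28, limma adjusted p = 5.92e-08). KLF5 (chr13:73054976-73077542, plus strand) went the other way, at 8.49, 7.54 and 8.38 TPM in SW480 Mock and 22.0, 31.9 and 27.2 TPM in SW620 Mock (log2 difference 1.60, SE 0.34, limma adjusted p = 0.00221). LMO7, which encodes a LIM-domain protein found at cell junctions and in the nucleus, lies in the same window as KLF5 and rose from 14.9 to 22.3 TPM in SW480 Mock to 102 to 114 TPM in SW620 Mock (log2 difference 2.54). ZMYM2, a zinc finger gene at the centromere end, was lower in SW620 Mock, with a log2 difference of -1.19, and TSC22D1, a leucine zipper gene, one of -1.0. The median over this list was 0.54.

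The list of signalling genes had 4 members before 60 Mb, with 0 called higher and 2 lower, and 9 after it, with 5 called higher and 1 lower. EFNB2 (chr13:106489731-106535662, minus strand), the ligand ephrin-B2 that signals to Eph receptors on neighbouring cells, was at 1.48, 1.09 and 0.75 TPM in SW480 Mock and 20.2, 24.3 and 26.1 TPM in SW620 Mock (log2 difference 3.55, SE 0.22, limma adjusted p = 6.60e-09). Over all groups it ranged from 0.75 to 1.48 TPM in the 6 SW480 libraries and from 19.6 to 37.8 TPM in the 12 SW620 libraries. A long noncoding RNA gene next to it, LINC00460, which is no member, was at 5.25 to 10.3 TPM in SW480 and 82.6 to 134 TPM in SW620. SPRY2, an inhibitor of receptor tyrosine kinase signalling, rose from 2.20, 3.16 and 2.68 TPM to 9.55, 8.72 and 9.64 TPM (log2 difference 1.49). GPR183, a receptor for oxysterols, was at 0 to 0.80 TPM in SW480 Mock and 5.36 to 10.3 TPM in SW620 Mock (log2 difference 2.53). Its span lies inside that of UBAC2 on the other strand, and whether their exons overlap was not examined.

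CDK8, from the list of transcription machinery genes, was lower in SW620 Mock, with a log2 difference of -0.90 (SE 0.23, limma adjusted p = 0.00939; 6.36 to 10.0 TPM in SW480 Mock and 3.00 to 5.03 TPM in SW620 Mock), a call lost without SW620 Mock replicate 1. Among the signalling genes TNFRSF19, a receptor of the tumour necrosis factor family that is known as a Wnt target, was lower, with a log2 difference of -0.78 (limma adjusted p = 0.0259), a call lost without SW620 Mock replicate 1, SW620 Mock replicate 2 or SW480 Mock replicate 2. IRS2, an adaptor of the insulin receptor, was at 2.82 to 6.77 TPM in SW480 Mock and 4.87 to 6.46 TPM in SW620 Mock and was not called (log2 difference 0.20, SE 0.25, limma adjusted p = 0.609). DOCK9, an activator of the small GTPase CDC42, was lower, with a log2 difference of -1.60. The median over the 13 signalling members was 0.46.

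Matrix, adhesion and cytoskeleton genes held the largest difference. LCP1 (chr13:46125920-46211871, minus strand), the actin-bundling protein L-plastin, was at 0.42, 0.80 and 0 TPM in SW480 Mock and at 90.0, 72.9 and 80.5 TPM in SW620 Mock. The log2 difference was 5.90 (SE 0.26, limma adjusted p = 1.79e-10), in a window where 16 of 35 members were called lower. L-plastin is known from blood cells and is also made by tumour cells. Of the 5 leukocyte markers in the list, PTPRC was at 0 to 3.42 TPM in SW480 and 0 to 0.48 TPM in SW620 libraries, CD14 at 2.06 to 6.96 and 0.08 to 1.14 TPM, CSF1R at 0.24 to 2.20 and 0.59 to 1.85 TPM and CD3E at 0 to 0.55 and 0 to 0.74 TPM. LYZ, the myeloid gene of lysozyme, was at 9.37 to 44.0 TPM in SW480 and 5.47 to 19.1 TPM in SW620 libraries. Host leukocytes would be mouse cells, and the part of these markers in the LCP1 difference was not tested. COL4A2, a chain of basement membrane collagen, was lower, with a log2 difference of -1.04 (19.0 to 33.9 against 11.6 to 13.1 TPM), while its partner COL4A1 was below the level of a member at 0 to 2.53 TPM. F10, coagulation factor X, was lower, with a log2 difference of -0.76 (limma adjusted p = 0.0329). Of the 12 members in this list 2 were called higher and 4 lower (median 0.12).

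The list of mitochondrial and metabolic genes was broad: it held IFT88 and ITM2B, and MTIF3 was counted with the transcription machinery genes. Of its 28 members 14 were called lower and 5 higher, with a median of -0.69. PCCA (chr13:100089015-100530437, plus strand), a subunit of the mitochondrial enzyme propionyl-CoA carboxylase, was among those called higher, at 29.8, 28.3 and 11.3 TPM in SW480 Mock and 141, 129 and 104 TPM in SW620 Mock (log2 difference 2.48, SE 0.26, limma adjusted p = 2.72e-06). ALOX5AP, which hands arachidonic acid to 5-lipoxygenase, was at 9.94, 10.0 and 11.7 TPM against 1.15, 0.78 and 1.06 TPM (log2 difference -2.53). CRYL1, a crystallin relative with dehydrogenase activity, was lower, with a log2 difference of -2.42 and ITM2B, a membrane protein gene, one of -1.77. MTIF3, a mitochondrial translation initiation factor, was lower, with a log2 difference of -1.47 and overlaps its neighbour GTF3A, which was not called at -0.25.

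GJB2, the gap junction protein connexin 26, was at 45.3, 34.6 and 24.5 TPM in SW480 Mock and 2.58, 2.49 and 2.29 TPM in SW620 Mock (log2 difference -3.33, SE 0.27, limma adjusted p = 1.66e-07). CCDC122, a coiled-coil gene, was lower, with a log2 difference of -1.74. WDFY2, an endosome protein gene from 50 to 60 Mb, was higher by 1.76, while DHRS12, which starts just beyond it on the other strand, was lower, with a log2 difference of -1.02. N4BP2L1 was lower, with a log2 difference of -1.19 in Mock and -2.21 in dnLEF1 tumours, and MBNL2, a splicing regulator, was higher by 1.62 and 1.81.

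The list of transcription machinery, RNA processing and export genes had 13 of 29 members called lower and 5 higher (median -0.61), among them GTF2F2, a subunit of the general factor TFIIF, at -0.91. IPO5, an importer of ribosomal proteins into the nucleus, rose from 35.4 to 38.8 TPM to 57.7 to 69.6 TPM (log2 difference 0.72). The list of cell cycle, replication and repair genes was divided, with 9 of 25 called higher and 7 lower (median 0.31): MPHOSPH8, a reader of methylated histone H3, was at -1.13 and PARP4 at -1.38, while PIBF1, a centrosome protein gene, was at 0.92. Of 23 ubiquitin, proteolysis and folding genes 5 were called higher and 7 lower (median 0.21), with the co-chaperone DNAJC15 at -1.57, the peptidase TPP2 at 0.86 and the ubiquitin ligase RNF219 at 1.02. These lists share a chromosome and were drawn up with earlier results known, and all of them held calls in both directions. Some genes stand in a list of another function, as PSPC1 does among the ubiquitin, proteolysis and folding genes. The counts are therefore those of the lists as drawn up. Over the lists 16.7% to 40% of members were called higher and 23.1% to 50% lower between Mock tumours. All 153 members had 25.5% and 36.6%, and the 9303 protein-coding genes of at least 5 TPM had 20.7% and 15.5%. The list counts are not read as a result about a function.

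Among the most abundant members of each window, TPT1 was lower in SW620 Mock, with a log2 difference of -0.98, HMGB1 of -0.67 and RPL21 of -0.61. The TPT1 call between dnLEF1 tumours (-0.61, limma adjusted p = 0.0275) was lost without SW620 dnLEF1 replicate 2 or 3 and without SW480 dnLEF1 replicate 1, where it was -0.34, and with median-ratio scaling, where it was -0.26. COMMD6 (0.51) and UBAC2 (0.55) were called higher, calls that leaving out single Mock libraries removed: replicate 1 of SW620 and replicates 1 and 2 of SW480 for COMMD6, and replicates 1 and 3 of SW620 and replicate 3 of SW480 for UBAC2. ARGLU1 (1.00), PCID2 (1.04) and ANKRD10 (0.89) were called higher, and PSPC1 (-0.09), EXOSC8 (-0.52), SUGT1 (0.21), CKAP2 (-0.43), UCHL3 (0.43) and TM9SF2 (0.49) were not called.

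**Figure D3:**
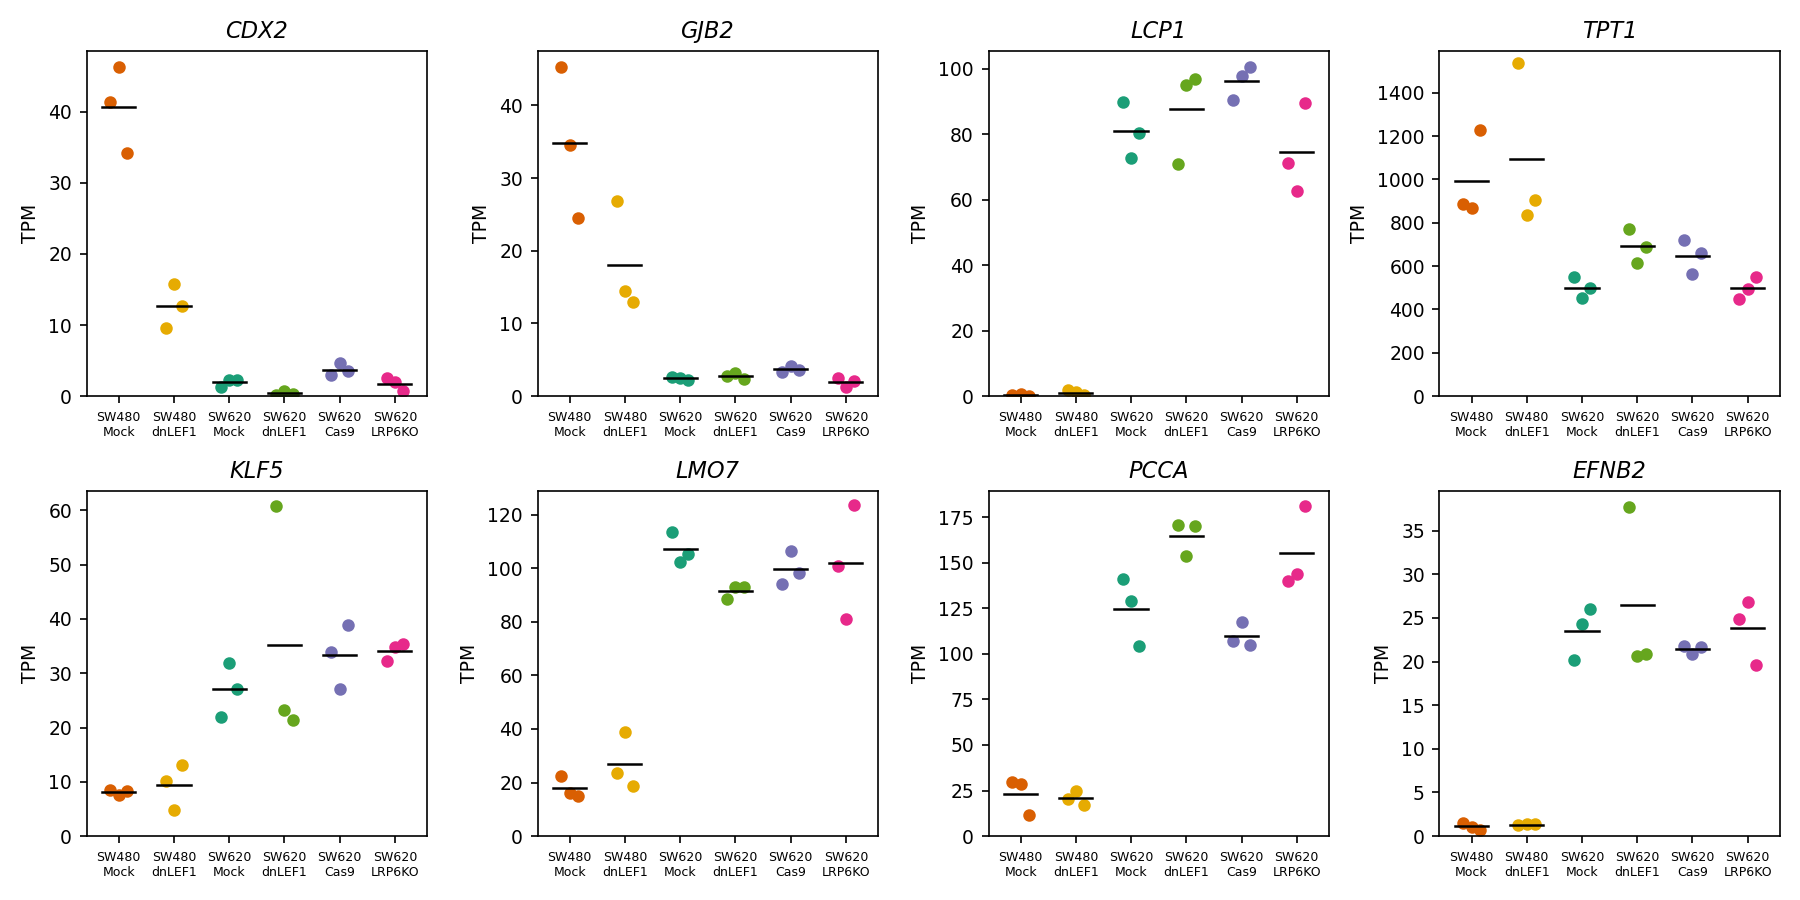
TPM (y axis, linear, from 0) of 8 members in the 18 libraries by group (x axis). Points are libraries and horizontal lines are means of 3. CDX2, GJB2 and TPT1 are higher in SW480 and the other 5 genes higher in SW620, with no overlap between the lines for any of the 8.

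dnLEF1 changed few of these genes within SW480. By limma 3 members were called higher in SW480 dnLEF1 than in SW480 Mock (1.96%) and 1 lower (0.654%), where 1.35% of all genes tested were called higher and 0.875% lower, so the members were called about as often as genes at large. At an unadjusted p under 0.05 there were 28 members higher (18.3%) and 6 lower (3.92%), against 12.2% and 6.36% of the 9303 genes. The median over members was 0.17, against 0.03 for all genes tested and 0.07 for the 9303 genes. The proximal promoters of the 4 called genes are shown because CTTTGA is the core of the sequence that TCF and LEF factors bind, and dnLEF1 keeps that binding domain. They are the RefSeq windows from 250 bases before to 50 after a start site in GRCh38.p14, written 5' to 3' on the gene's strand with matches to CTTTGA in capitals: CDX2 at chr13:27969266-27969565 (minus), ALOX5AP at chr13:30713235-30713534 (plus), DHRS12 at chr13:51804114-51804413 (minus, the first of 3 windows) and F10 at chr13:113122549-113122848 (plus).
CDX2: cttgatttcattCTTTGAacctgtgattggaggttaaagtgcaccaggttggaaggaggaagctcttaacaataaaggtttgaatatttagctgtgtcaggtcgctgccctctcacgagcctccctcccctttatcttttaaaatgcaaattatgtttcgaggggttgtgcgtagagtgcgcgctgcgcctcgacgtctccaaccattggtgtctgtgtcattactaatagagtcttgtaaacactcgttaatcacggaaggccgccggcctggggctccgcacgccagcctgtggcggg
ALOX5AP: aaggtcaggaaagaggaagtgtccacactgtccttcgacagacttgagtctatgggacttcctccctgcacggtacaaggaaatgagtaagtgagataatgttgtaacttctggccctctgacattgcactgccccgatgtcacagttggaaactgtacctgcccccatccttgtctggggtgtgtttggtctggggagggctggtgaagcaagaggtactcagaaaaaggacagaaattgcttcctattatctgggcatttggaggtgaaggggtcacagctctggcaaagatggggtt
DHRS12: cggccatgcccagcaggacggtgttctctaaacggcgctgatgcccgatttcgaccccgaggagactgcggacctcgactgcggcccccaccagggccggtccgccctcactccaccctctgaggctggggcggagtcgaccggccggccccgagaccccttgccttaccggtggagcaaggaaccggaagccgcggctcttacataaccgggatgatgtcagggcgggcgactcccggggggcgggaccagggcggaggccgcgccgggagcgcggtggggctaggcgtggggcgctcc
F10: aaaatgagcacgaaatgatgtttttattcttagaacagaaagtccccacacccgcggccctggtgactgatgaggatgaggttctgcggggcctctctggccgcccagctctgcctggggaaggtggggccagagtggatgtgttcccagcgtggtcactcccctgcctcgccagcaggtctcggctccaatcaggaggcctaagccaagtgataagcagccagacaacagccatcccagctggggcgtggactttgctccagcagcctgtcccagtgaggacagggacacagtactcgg

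CDX2 held 1 match, at position -238 from the start on the strand shown, and the windows of ALOX5AP, DHRS12 (all 3) and F10 held none on either strand. Over all 35116 RefSeq promoter windows 4536 (12.9%) held CTTTGA on either strand. Of the members 138 matched a promoter, and 19 of their 210 windows (9.05%), from 18 genes, held it. Among these 18 only CDX2 was called in SW480 dnLEF1 against Mock. A match describes letters in a window of 300 bases and says nothing of binding.

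CDX2 fell with dnLEF1 in SW480, from 41.4, 46.2 and 34.2 TPM in Mock to 9.55, 15.8 and 12.7 TPM (log2 difference -1.62, SE 0.28, limma adjusted p = 0.00696), a call lost with a pseudocount of 0.1 (-1.69). In SW620 it was at 0.17, 0.76 and 0.35 TPM in dnLEF1 and did not pass the test against Mock (-1.05, SE 0.28, limma adjusted p = 0.235), though the 3 libraries lay below the 3 of Mock. ALOX5AP rose in SW480 from 9.94, 10.0 and 11.7 TPM to 32.7, 56.9 and 38.0 TPM (log2 difference 1.88, SE 0.24, limma adjusted p = 5.73e-04). F10 rose from 28.9, 44.9 and 30.1 TPM to 85.1, 129 and 125 TPM (log2 difference 1.68, SE 0.24, limma adjusted p = 0.00157). DHRS12, a short-chain dehydrogenase gene, rose from 11.7, 18.9 and 15.7 TPM to 23.6, 40.5 and 31.5 TPM (log2 difference 0.99, SE 0.23, limma adjusted p = 0.0312).

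In each of these 4 genes the SW480 dnLEF1 and Mock libraries did not overlap. The DHRS12 call was lost in 4 of the 6 fits that left out 1 library: without SW480 dnLEF1 replicate 2 or 3, or without SW480 Mock replicate 1 or 3. Leaving out SW480 dnLEF1 replicate 1 raised the members called from 4 to 18, and fitting only the 2 groups gave 0. The share of all genes called in these fits is not given here, so the counts are no result about the members. In SW620, ALOX5AP was at 0.66 to 1.65 TPM and F10 at 14.3 to 20.1 TPM in dnLEF1, against 0.78 to 1.15 and 14.8 to 25.2 TPM in Mock. The dnLEF1 change differed between the lines for both: SW620 minus SW480 was -1.73 for ALOX5AP (SE 0.34, limma adjusted p = 0.0255) and -1.83 for F10 (SE 0.35, limma adjusted p = 0.0207). The ALOX5AP call in this test was lost with a pseudocount of 0.1 and with median-ratio scaling.

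Within SW620, no member was called between dnLEF1 and Mock, where 0.165% of all genes tested were called by limma. At an unadjusted p under 0.05 there were 16 members higher (10.5%) and 4 lower (2.61%), against 2.29% and 9.67% of the 9303 genes. All 3 dnLEF1 libraries lay above the 3 Mock libraries for 22 members (14.4%), against 5.37% of the 9303 genes, and below them for 11 (7.19%), against 21.2%. The smallest p among members were those of TNFRSF19, at 2.70, 2.09 and 2.68 TPM against 5.04, 5.65 and 6.54 TPM (log2 difference -0.95, limma adjusted p = 0.2), CDX2, given above, and NUP58, a nuclear pore protein gene (0.77, limma adjusted p = 0.264). LHFPL6, just below the level of a member at a mean of 4.61 TPM, was called higher (2.51, limma adjusted p = 7.98e-04).

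No member was called in the other comparisons within SW620. Between LRP6KO and Cas9 limma called 0% of genes tested, and an unadjusted p under 0.05 was reached by 1 member higher (0.654%) and 21 lower (13.7%), against 2.18% and 1.53% of the 9303 genes. The 3 libraries labelled LRP6KO lay below the 3 Cas9 libraries for 43 members (28.1%), against 5.64% of the 9303 genes, and above them for 4 (2.61%), against 7.2%. The median was -0.20, against 0.04 for the 9303 genes, and the window medians were -0.29, -0.29, -0.25, -0.31 and -0.14 before 60 Mb and 0.01, 0.22, -0.14, 0.07 and -0.17 after it. In ranks over 263 windows, 1 window was lower than that from 40 to 50 Mb and 2 than that from 20 to 30 Mb. Lower than that from 30 to 40 Mb were 4, and 6 than that from 110 to 120 Mb. Lower than that from 50 to 60 Mb were 11, and 13 than that from 90 to 100 Mb. The remaining ranked windows were not near the low end. Lower than that from 70 to 80 Mb were 67 windows, and 169 than that from 100 to 110 Mb. DNAJC15 had the smallest p, at 11.3, 8.21 and 12 TPM in LRP6KO and 20.8, 19.0 and 23.5 TPM in Cas9 (log2 difference -0.96, SE 0.19, limma adjusted p = 0.544), followed by FNDC3A (-0.53) and ZMYM2 (-0.76), both with a limma adjusted p of 1.

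Cas9 against SW620 Mock went the other way, and it shares the Cas9 libraries with the preceding comparison. Limma called 0% of genes tested and no member, with 17 members higher (11.1%) and 1 lower (0.654%) at an unadjusted p under 0.05, against 3.02% and 3.68% of the 9303 genes. The 3 Cas9 libraries lay above the 3 Mock libraries for 39 members (25.5%), against 8.92% of the 9303 genes, and below them for 4 (2.61%), against 11.6%. Window medians were 0.28, 0.26, 0.23, 0.25 and -0.04 before 60 Mb and 0.10, 0.42, 0.10, 0.03 and 0.12 after it. COG3, a Golgi tethering subunit, was at 21.8, 20.2 and 16.9 TPM in Cas9 and 11.2, 5.09 and 9.29 TPM in Mock (log2 difference 1.17, SE 0.22, limma adjusted p = 0.269). NUP58 (0.83) and ITM2B (0.68) each had a limma adjusted p of 0.566.

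In LRP6KO against SW620 Mock, which shares the Mock libraries with the preceding comparison, the median over members was -0.02. Of the members 10 (6.54%) lay wholly above and 10 wholly below, where 6.45% and 7.01% of the 9303 genes did, and no member was called, where limma called 0.00435% of genes tested (1 gene). At an unadjusted p under 0.05 there were 5 members higher (3.27%) and 3 lower (1.96%), against 2.57% and 2.4% of the 9303 genes, with CCDC122 (1.18, limma adjusted p = 0.266), SPRY2 (0.65) and COG3 (0.71) having the smallest p. The share of TPM in mitochondrial protein-coding transcripts moved with the same division of the SW620 groups. It was 4.73% to 5.71% in Cas9 and 4.87% to 6.06% in dnLEF1, and 3.75% to 4.03% in Mock and 3.93% to 4.20% in LRP6KO, so the first pair lay above the second. Its part in the window differences was not tested.

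**Figure D4:**
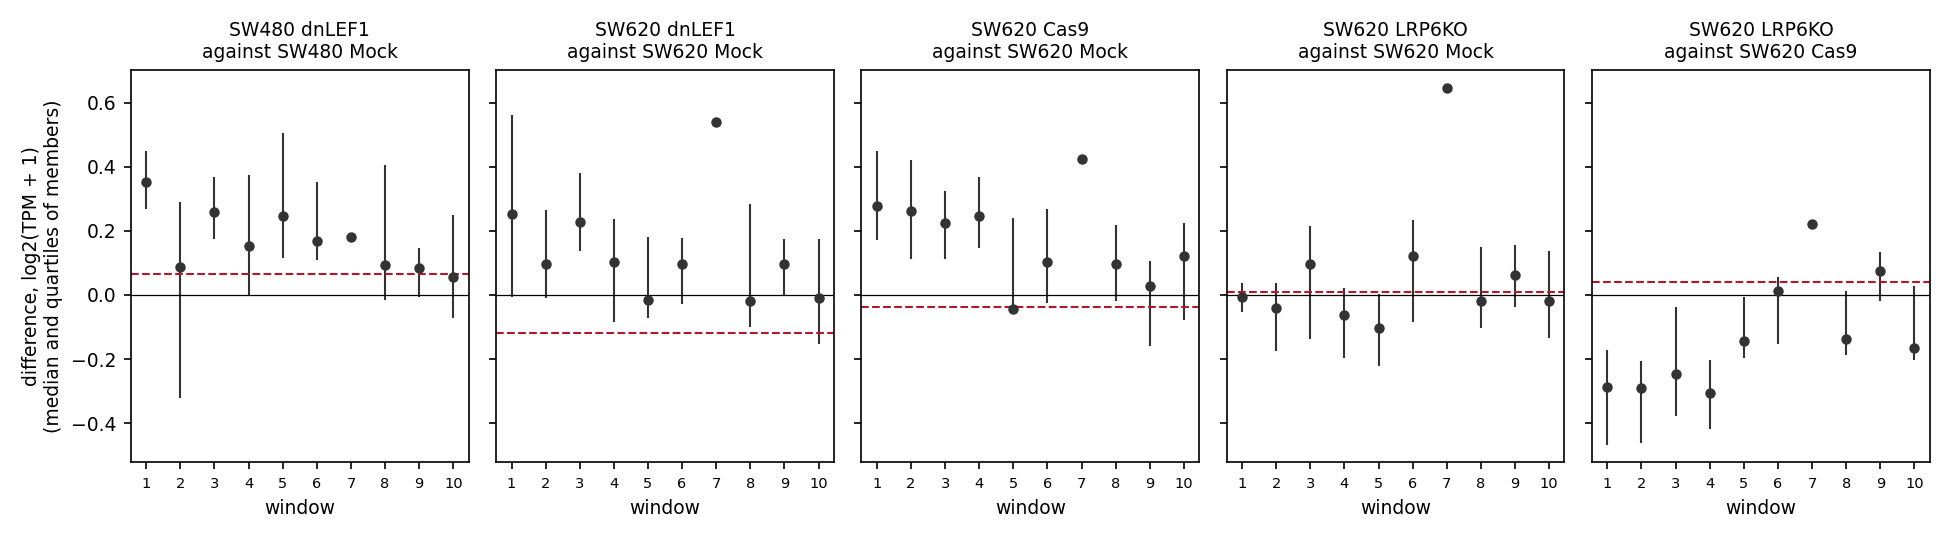
Window medians of the difference in log2(TPM + 1) (y axis) for the 5 comparisons within a line, by window in order along the chromosome (x axis). Points are medians over a window's members, bars run from the lower to the upper quartile, and the dashed line is the median of the 9303 protein-coding genes of at least 5 TPM. In Cas9 against Mock windows 1 to 4 lie at 0.23 to 0.28, and in LRP6KO against Cas9 at -0.31 to -0.25.

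By whole gene spans, of the 153 members 105 overlap another annotated gene of any kind and 38 overlap another protein-coding gene. An overlapping gene on the opposite strand was found for 84. Exons were not compared. Where exons overlap, reads without strand could be counted to either partner. Among the genes named an overlap of spans applies to PCCA, GPR183, WDFY2, DHRS12, ELF1, MTIF3, GTF2F2, COG3, COL4A2 and PIBF1. It also applies to TPT1, PSPC1 and ZMYM2, and the names given here are not all of them. DNA copy number was not analysed here.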

How the data were processed

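RNA from 18 xenograft libraries in 6 groups of 3 was used, of 21 samples in the series. The deposited human table gives TPM per gene, made by the authors with Trimmomatic 0.35, Bowtie 1.2 and RSEM 1.2.31 against hg38 and mm10, per the submitters' processing notes; how reads were divided between human and mouse and the annotation release are not given in the sources used here. Identifiers were joined to GENCODE 29 without version numbers (58261 of 58381 matched) and 45 second copies of pseudoautosomal genes, all at 0, were left out. TPM keeps no depth, so no counting interval is given.

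Differences were fitted with limma 3.58.1 (R 4.3.3, intensity trend) on log2(TPM + 1) over all 6 groups, for the 22981 genes that reached 1 TPM in 3 or more libraries, with Benjamini-Hochberg adjustment over all of them and a threshold of 0.05. Low genes' differences are understated on this scale. Windows of 10 Mb use gene starts, and group medians carry no test. The fit was tested on simulated data. Tables and figures used Python 3.11.15, numpy 2.4.6, pandas 2.3.3 and matplotlib 3.10.9. The members and lists were chosen with earlier results of these data known. Named genes are, per comparison, called members whose groups do not overlap (up to 6 largest changes each way between lines, 4 elsewhere), or the 3 smallest p where fewer than 3 are called. The rule adds CDX2, KLF5, CDK8, IRS2, EFNB2, COL4A1, COL4A2, LHFPL6, TNFRSF19 and TPT1 where they are members, the 2 most abundant members of each window, and up to 3 per list by p between Mock tumours. Alternatives were another pseudocount (0.1), no filter, median-ratio scaling, only the 2 groups, the replicate number as a block, other level minimums, window sizes and each library left out; the joint removal of 2 libraries and the difference of the dnLEF1 changes were added after seeing the data. Mouse reads and PBS-injected caeca were not used here.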

Additional observations from a re-analysis of the deposited data

Results flagged for a closer look

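The change with dnLEF1 differed between the lines for 2 members in a test of the difference itself, which called 165 of 22981 genes. For F10 the change in SW620 minus that in SW480 was -1.83 (SE 0.35, limma adjusted p = 0.0207), and for ALOX5AP it was -1.73 (SE 0.34, limma adjusted p = 0.0255). Each rose in all 3 dnLEF1 libraries of SW480 above all 3 Mock libraries, while in SW620 the dnLEF1 and Mock libraries overlapped. With a pseudocount of 0.1 or with median-ratio scaling F10 was the only member called in that test.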

How the results depend on the processing

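In the 12 alternative fits of each line comparison, the members before 60 Mb kept a negative median (-0.83 to -0.67 between Mock tumours, -0.76 to -0.35 between dnLEF1 tumours) and those after it a positive one (0.51 to 0.66 and 0.44 to 0.86). The fits with no filter, only the 2 groups or the replicate block could not move these medians, which rest on differences of group means. For Mock tumours the joint removal repeated the fit without SW480 Mock replicate 2. For dnLEF1 tumours it took no library from the comparison. Members called ranged from 82 to 91 between Mock tumours and from 78 to 89 between dnLEF1 tumours when 1 library was left out. Shares over all genes in the alternative fits are not given here, so counts of members in them show only how calls depend on the fit. Calls were fewer with only the 2 groups in the fit. Between Mock tumours that gave 4 higher and 36 lower before 60 Mb, and 27 higher and 3 lower after it. Between dnLEF1 tumours it gave 3 higher and 44 lower before 60 Mb, and 23 higher and 4 lower after it. Leaving out SW480 Mock replicate 2 and SW620 LRP6KO replicate 1 together gave 86 and 96. The chromosome median between Mock tumours was -0.12 as a mean over members, and -0.30 to -0.11 with 1 library left out. Between dnLEF1 tumours it was 0.085 with median-ratio scaling, a change of sign, and -0.39 with members of at least 1 TPM. Scaling also gave 0.10 for the window from 50 to 60 Mb in that comparison, -0.01 for the window from 100 to 110 Mb in SW480 dnLEF1 against Mock, and 0.24 for the chromosome median of SW620 dnLEF1 against Mock. The window from 50 to 60 Mb in LRP6KO against SW620 Mock was -0.19 to 0.015 with 1 library left out, changing sign without SW620 Mock replicate 1. In SW480 dnLEF1 against Mock 0 members were called with only the 2 groups in the fit, and 3 to 18 with 1 library left out. In SW620 dnLEF1 against Mock 1 gene was called with members of at least 1 TPM, LHFPL6. The cause of these changes was not tested. With the replicate number as a block 93, 94, 4 and 0 members were called in the 2 line and the 2 dnLEF1 comparisons, and 0 in the other 3; deviations of same-numbered libraries correlated at -0.13 to 0.12, so the numbers were not taken as pairs. With 3 libraries a group and no depth in TPM, small differences of low genes cannot be resolved.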

Other observations

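Noncoding genes of chromosome 13, chosen after their values were seen, also differed between Mock tumours by limma. TUSC8, a long intergenic noncoding RNA gene, was at 18.5 to 45.0 TPM in the 6 SW480 libraries and 2.46 to 7.99 TPM in the 12 SW620 libraries (log2 difference -2.10, SE 0.31, limma adjusted p = 8.98e-05). TPT1-AS1, antisense to TPT1, was at 17.2 to 39.0 TPM and 6.98 to 14.3 TPM (log2 difference -1.32, SE 0.27, limma adjusted p = 0.00165). Where its exons overlap those of TPT1, which was not examined, reads without strand could be counted to either gene. MCF2L-AS1, in the distal stretch, was at 1.99 to 10.8 TPM and 8.07 to 19.1 TPM, ranges that overlapped (log2 difference 1.58, SE 0.34, limma adjusted p = 0.00239). The lower protein-coding gene LHFPL6 stood at -1.74 between Mock tumours and at 0.98 between dnLEF1 tumours (limma adjusted p = 3.13e-04 and 0.0166), opposite signs in the 2 comparisons of the lines.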
